A study of Moricandia suffruticosa and Brassica napus with 23 samples.

Results

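The enzymes of jasmonate synthesis were followed in the leaf of oilseed rape, Brassica napus, under control conditions, drought and heat. They were taken as every gene of the expression table whose best Arabidopsis match is LOX2 (AT3G45140), LOX3 (AT1G17420), LOX4 (AT1G72520), LOX6 (AT1G67560), AOS (AT5G42650), AOC1 (AT3G25760), AOC2 (AT3G25770), AOC3 (AT3G25780), AOC4 (AT1G13280) or OPR3 (AT2G06050). This gave 44 gene copies among the 101040 genes listed. The copies fall under 9 of the 10 loci, since 0 genes had AOC1 as their best match. Whether a Brassica counterpart of AOC1 is listed under AOC2 or AOC3 could not be settled. Of the 44 copies, 37 reached the minimum level for testing (1 FPKM in at least 3 libraries), among 44260 genes tested in all.

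Jasmonates are oxylipin hormones made from the fatty acid linolenic acid, and in leaves they are best known for inducing defence against chewing insects and responses to wounding. In the chloroplast, a 13-lipoxygenase (LOX) adds oxygen to linolenic acid, allene oxide synthase (AOS) turns the product into an unstable allene oxide, and allene oxide cyclase (AOC) closes its ring to give OPDA. In the peroxisome, the reductase OPR3 acts on OPDA, and its side chain is then shortened to jasmonic acid, which JAR1 joins to isoleucine to give the active hormone. In Arabidopsis many of these genes are themselves induced by jasmonate, through the receptor COI1 and the factor MYC2.

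All plants were Brassica napus without any transgene or mutation named in the labels, grown in soil for 35 days at 25 °C, 60% humidity and 16 h of light. Control plants received neither treatment, drought plants went without water for 3 days, and heat plants spent 3 h at 40 °C. Polyadenylated leaf RNA gave 3 libraries in each group, and every mean ± SD is over these 3 (n = 3). The series holds 23 samples, and its 14 samples of Moricandia suffruticosa were not analysed here.

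Read counts here and below were inferred from the values, taking 1 step between values as 1 read. By this count the libraries held 12173804 to 12934922 reads assigned to genes. Values are FPKM (reads divided by coding length and by the total of assigned reads), and 1 read on a gene of 1 kb was worth 0.0773 to 0.0821 FPKM. Replicates differed by more than read sampling (chi-square per gene of 1.48 to 2.45), so no library was a copy of another. The pairs with drought replicate 3 were the most unlike, at 2.43 and 2.45 against 1.48 for the other drought pair. Of 3 leaf markers, 2 were abundant in all groups, and in heat they moved in opposite directions, each by at least 2-fold with a limma adjusted p under 0.05. RCA (Rubisco activase) was at 24731 ± 135 FPKM in control, 21870.1 ± 570.4 in drought (-0.18 log2) and 8288 ± 130.1 in heat (-1.58 log2). CAB1, a light-harvesting chlorophyll-binding protein, was at 6444 ± 115, 2041 ± 99 (-1.66 log2) and 16391 ± 255 FPKM (1.35 log2). The small Rubisco subunit RBCS1A was listed at only 2.40 FPKM in control. Summed root markers (CASP1, CASP2) reached at most 2.52 FPKM, flower markers (AP3, PI, AG) 2.21 FPKM and seed markers (CRA1, CRU3) 0.0570 FPKM in any library, and CRU3 was listed at 0 in all 9. In bulk leaf RNA, fewer cells of a type and less RNA per cell cannot be told apart.

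Drought and heat were each compared with the same 3 control libraries, so the comparisons are not independent of each other. A gene or locus was called lower or higher when limma gave an adjusted p under 0.05 and a change of at least 2-fold on the log2(FPKM + 1) scale. Log2 changes and SEs are on that scale, where changes of genes with few reads come out too small, while fold values are ratios of mean FPKM. In drought, 27 of the 37 tested copies were called lower and 0 higher. Of all 44260 tested genes, 6.87% were called lower and 5.12% higher in drought. In heat, 23 of the 37 were called lower and 0 higher, where 11.2% of all tested genes were called lower and 14.4% higher. At an unadjusted p under 0.05 alone, 2 copies lay above control in drought and 1 in heat, and limma's voom on recovered reads called 0 higher in either. The median log2 change of the 37 copies was -1.63 in drought and -1.56 in heat, against -0.06 and 0.16 over all tested genes.

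With all copies of a locus added up, 7 of the 9 loci were called lower in drought and 6 of 9 in heat, where 7.31% and 10.4% of the 16186 tested loci were called lower. None of the 9 was called higher in drought or in heat, where 5.08% and 14.5% of all tested loci were; at an unadjusted p under 0.05 alone, 0 lay above control in drought and 1 in heat, and voom called 0 higher in either. In drought 8 of the 9 lay below all control libraries, as 35.9% of all tested loci did. In heat 8 lay below and 1 above all control libraries, where 30.7% and 47.9% of all tested loci did. Another scaling (TMM factors on the values) lowers the median heat change against control over all tested features by 0.15 log2 for copies and 0.17 for loci. The called loci were the same number under it in drought, and in heat LOX6 joined them.

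**Figure D1:**
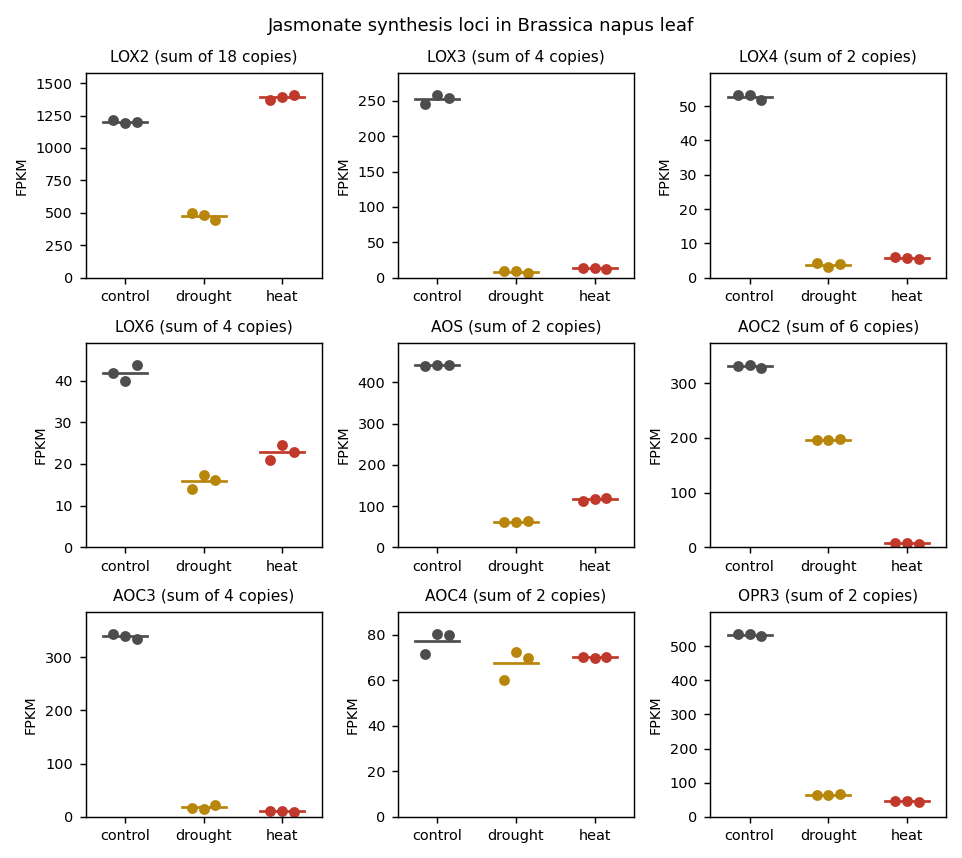
Summed FPKM of each jasmonate synthesis locus (vertical axes, all from 0, with a scale of their own) in the 3 control, 3 drought and 3 heat libraries of Brassica napus leaf. Points are libraries and lines are group means. LOX2 is the locus with heat above control, AOC2 keeps most of its level in drought and little in heat, and AOC4 has similar levels in all 3 groups.

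LOX2 (AT3G45140), in Arabidopsis the lipoxygenase that makes most of the jasmonate of wounded leaves, had the highest level of the 9 loci in every library. Its 18 copies summed to 1218, 1192 and 1199.7 FPKM in the control libraries, 497, 486 and 441 in drought and 1370.4, 1391 and 1407 in heat. Drought lay below control in all 3 libraries, and heat lay just above it, without overlap. LOX2 fell 2.53-fold in drought (log2 change -1.34, SE 0.04, limma adjusted p = 9.88e-12). In heat it was 1.15 times the control level (log2 change 0.21, SE 0.04, limma adjusted p = 3.37e-04), which did not reach the fold threshold, and TMM scaling brought the difference to 0.02. Heat against drought, LOX2 was 2.93-fold higher (log2 change 1.55, SE 0.04, limma adjusted p = 1.36e-12).

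LOX3 and LOX4, a closely related pair of 13-lipoxygenases that in Arabidopsis act in flowers and in stress responses, had low levels in both treatments. The 4 LOX3 copies summed to 246, 258 and 254 FPKM in control, 9.55, 9.78 and 6.75 in drought and 13.4, 13.9 and 12.8 in heat. LOX3 thus had the largest drought fold of the 9 loci, 29.1-fold lower (log2 change -4.73, SE 0.10, limma adjusted p = 9.54e-13). In heat it was 18.9-fold lower (log2 change -4.14, SE 0.10, limma adjusted p = 2.47e-12). The 2 LOX4 copies summed to 53.2, 53.1 and 51.6 FPKM in control, 4.23, 3.14 and 3.86 in drought and 5.93, 5.85 and 5.53 in heat. The drought values rest on 106 to 140 reads per library. LOX4 fell 14.1-fold in drought (log2 change -3.51, SE 0.09, limma adjusted p = 4.22e-12) and 9.12-fold in heat (log2 change -2.99, SE 0.09, limma adjusted p = 1.40e-11). Both loci lay a little higher in heat than in drought, without overlap, as 49.8% of all tested loci did. The differences (0.58 and 0.52 log2) were under the fold threshold, and were 0.34 and 0.30 with TMM scaling. With quantile normalization that of LOX4 was 0.14 (limma adjusted p = 0.200).

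LOX6, the 13-lipoxygenase that in Arabidopsis is active near the xylem and serves the early response to wounding, was the least changed of the minor lipoxygenases. Its 4 copies summed to 41.9, 40.0 and 43.8 FPKM in control, 14.1, 17.4 and 16.2 in drought and 21.0, 24.5 and 22.9 in heat. The 3 groups did not overlap, with heat between drought and control. Of all tested loci, 49.8% lay above drought in heat without overlap. The LOX6 difference there, 0.49 log2, was under the fold threshold and was 0.24 with TMM scaling. LOX6 fell 2.64-fold in drought (log2 change -1.35, SE 0.08, limma adjusted p = 1.99e-08). The heat difference of -0.85 log2 (SE 0.08, limma adjusted p = 1.01e-06) was under the fold threshold and passed it with TMM scaling, at -1.04. Summed xylem markers (CESA7 and XCP1, 2 of 2 detected) stood at 7.07 to 9.87 FPKM in control, 6.08 to 7.23 in drought and 3.62 to 4.25 in heat, where XCP1 was called lower. Their part in the LOX6 result was not tested.

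AOS, the cytochrome P450 enzyme that commits lipoxygenase products to jasmonate, is encoded by 2 listed copies. They summed to 439, 443 and 441 FPKM in control, 60.2, 61.8 and 62.6 in drought and 113, 117 and 121 in heat. Replicates lay close together in control and drought and ranged from 113 to 121 FPKM in heat, and the 3 groups stood far apart. AOS fell 7.17-fold in drought (log2 change -2.82, SE 0.04, limma adjusted p = 7.80e-15) and 3.78-fold in heat (log2 change -1.91, SE 0.04, limma adjusted p = 1.95e-13). Heat stood 0.91 log2 above drought (SE 0.04, limma adjusted p = 1.84e-10), under the fold threshold.

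The allene oxide cyclases parted from each other. In Arabidopsis several genes encode this enzyme with overlapping activity. AOC3 (4 copies, 2 of them tested) summed to 343, 340.5 and 334 FPKM in control, 15.8, 15.2 and 22.0 in drought and 10.3, 10.3 and 9.85 in heat. It was 19.2-fold lower in drought (log2 change -4.21, SE 0.10, limma adjusted p = 3.07e-12) and 33.4-fold lower in heat (log2 change -4.93, SE 0.10, limma adjusted p = 5.09e-13).

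AOC2 had nearly the same control level as AOC3 and lost it in heat. Its 6 copies summed to 332, 334 and 327 FPKM in control, 197, 196 and 198 in drought and 6.84, 8.15 and 6.62 in heat. The heat values rest on 64 to 77 reads per library. AOC2 was 46.0-fold lower in heat, the largest heat fold of the 9 loci (log2 change -5.34, SE 0.06, limma adjusted p = 2.05e-15). In drought it was 1.68-fold below control without overlap (log2 change -0.75, SE 0.06, limma adjusted p = 2.66e-07), under the fold threshold. It was the single locus called lower in heat than in drought, at -4.60 log2 (SE 0.06, limma adjusted p = 4.62e-15), and LOX2 the single one called higher. Among all 16186 tested loci, 10.2% were called lower and 18.0% higher in that comparison.

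AOC4 was called in neither treatment. Its 2 copies summed to 71.4, 80.2 and 79.8 FPKM in control, 60.1, 72.1 and 69.8 in drought and 70.3, 69.9 and 70.1 in heat. Drought overlapped with both other groups, and heat lay below control by a narrow margin. The differences from control were -0.20 log2 in drought (SE 0.07, limma adjusted p = 0.0255) and -0.13 in heat (SE 0.07, limma adjusted p = 0.0888). Heat against drought, the difference was 0.06 log2 and took the other sign with TMM scaling, at -0.20.

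OPR3, the reductase without which Arabidopsis flowers make little jasmonate, had the second highest control level of the 9 loci. Its 2 copies summed to 535, 535 and 529 FPKM in control, 63.7, 63.8 and 66.4 in drought and 44.8, 47.4 and 42.3 in heat. OPR3 fell 8.25-fold in drought (log2 change -3.02, SE 0.05, limma adjusted p = 1.73e-14) and 11.9-fold in heat (log2 change -3.54, SE 0.05, limma adjusted p = 4.14e-15). Heat lay below drought in all libraries, as 29.1% of all tested loci did, by 0.52 log2, under the fold threshold.

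The order of the loci by level differed between the groups. In control it ran LOX2 (1203 FPKM), OPR3 (533), AOS (441), AOC3 (339), AOC2 (331), LOX3 (253), AOC4 (77.1), LOX4 (52.6) and LOX6 (41.9). Of these neighbours, AOC3 and AOC2 overlapped between libraries. In drought AOC2 (197 FPKM) followed LOX2, and AOC4, OPR3 and AOS came next at 67.3, 64.6 and 61.6 FPKM. The AOC4 libraries overlapped with those of OPR3 and AOS, and AOC3 (17.7) overlapped with LOX6 (15.9). In heat AOS (117 FPKM) followed LOX2, then AOC4 (70.1), OPR3 (44.8), LOX6 (22.8), LOX3 (13.4), AOC3 (10.2), AOC2 (7.203) and LOX4 (5.77), with no overlap between neighbours.

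The make-up of each enzyme pool shifted with these levels. The 4 lipoxygenase loci together stood at 1550.5 ± 7.83 FPKM in control, 503 ± 30.7 in drought and 1431 ± 19.1 in heat, so that heat kept most of the control sum. LOX2 made up 77.6% of it in control, 94.4% in drought and 97.1% in heat. Without LOX2 the sum was 347 ± 5.44 FPKM in control, 28.3 ± 1.79 in drought and 41.9 ± 2.01 in heat. LOX3 held 72.8% of that remainder in control, and LOX6 held 56.1% of it in drought and 54.3% in heat.

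For the cyclases, the summed level was 747 ± 6.95 FPKM in control, 282 ± 8.67 in drought and 87.4 ± 0.849 in heat. AOC2 and AOC3 shared the control pool at 44.3% and 45.4%. In drought AOC2 was the main locus, at 69.9% (68.3 to 72.1% across libraries). In heat AOC4 was, at 80.2% (79.2 to 81.0%). AOC4 itself was called in neither treatment, so its larger share goes with the lower levels of the other cyclases.

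**Figure D2:**
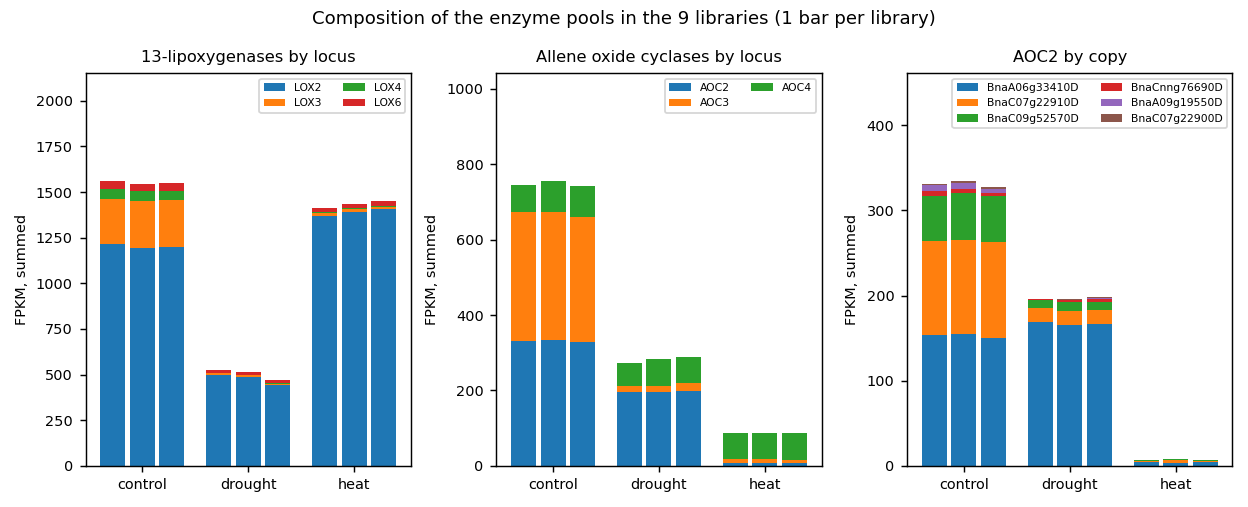
Stacked FPKM in each of the 9 libraries (1 bar per library, 3 per group), for the 13-lipoxygenases by locus, the allene oxide cyclases by locus and AOC2 by gene copy. LOX2 fills nearly the whole lipoxygenase bar in heat, AOC2 is the largest cyclase part in drought and AOC4 in heat, and the drought bar of AOC2 is mostly 1 copy.

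Copies of a locus are genes of the A and C subgenomes, from Brassica rapa and Brassica oleracea, that share a best Arabidopsis match. A best match alone does not show that a copy is the counterpart of that Arabidopsis gene. Of the 44 copies, 31 cover at least 80% of the Arabidopsis protein, and identity to it ranged from 43.6% to 92.6%. Where copies are nearly identical, the authors' counting could have split reads between them, so single copies are less certain than sums. In drought, 32 of the 37 tested copies lay below all control libraries and 3 above all of them, where 31.4% and 23.3% of all tested genes did. In heat, 28 lay below and 2 above, where 29.2% and 42.1% of all tested genes did. All 4 LOX3, both AOS, both OPR3 and both tested AOC3 copies were called lower in drought and in heat. LOX2 had 9 of 13 tested copies called lower in drought and 4 in heat, LOX6 3 and 2 of 4, LOX4 2 and 1 of 2, AOC2 3 and 6 of 6, and AOC4 0 and 0 of 2. Heat against drought, 6 copies were called lower and 7 higher, where 11.1% and 17.5% of all tested genes were.

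**Figure D3:**
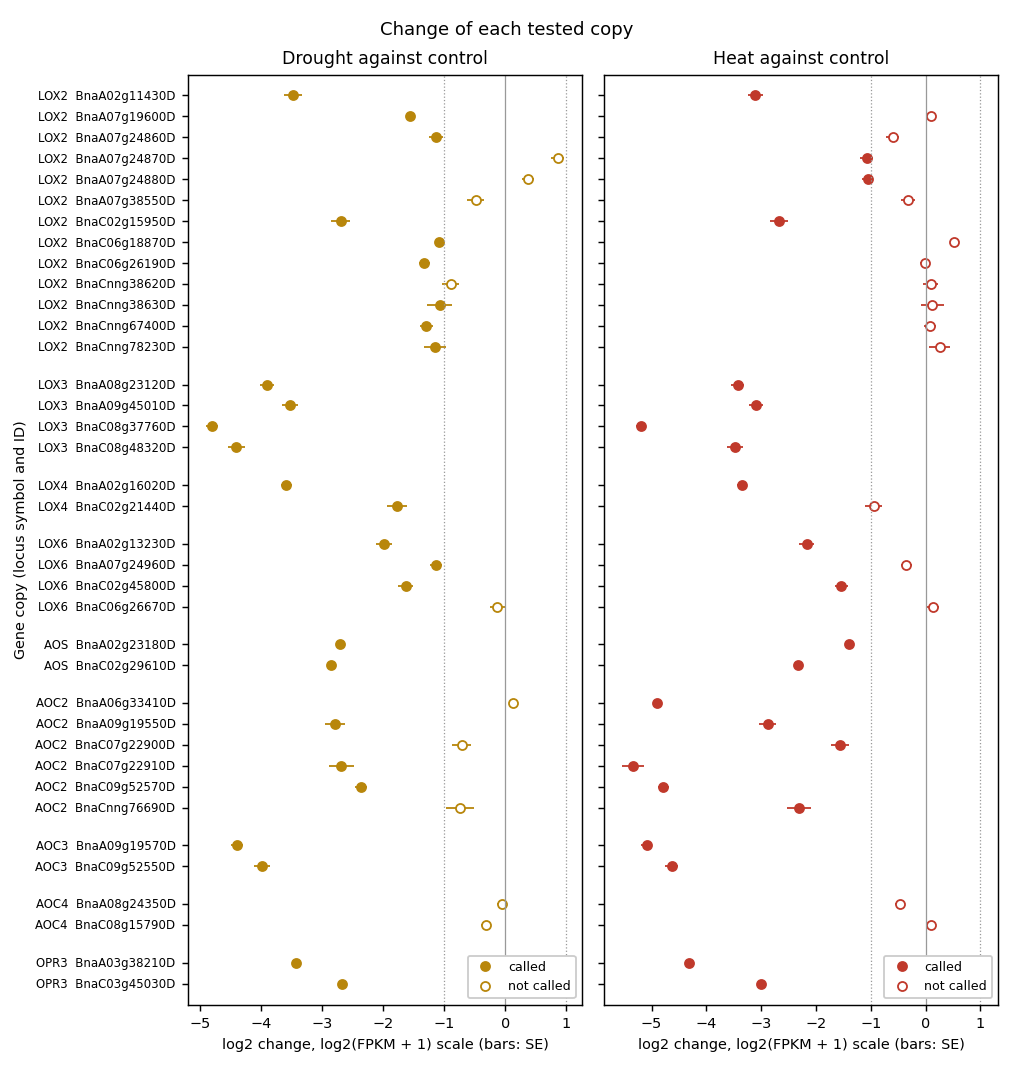
Log2 change of each of the 37 tested copies in drought (left) and heat (right) against control on the log2(FPKM + 1) scale, with SE bars. Filled points were called and open points were not, and dotted lines mark the 2-fold threshold. No filled point lies right of 0, and AOC2 copy BnaA06g33410D lies near 0 in drought and near -5 in heat.

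The drought level of AOC2 rested on 1 copy. BnaA06g33410D stood at 154, 155 and 151 FPKM in control, 169, 166 and 167 in drought and 4.79, 3.78 and 4.02 in heat. Its drought change was 0.13 log2 (SE 0.07, limma adjusted p = 0.156), all drought libraries lying above control, and was -0.0051 with quantile normalization. In heat it fell with the rest (-4.90 log2, SE 0.07, limma adjusted p = 5.19e-13). The next copies, BnaC07g22910D and BnaC09g52570D, went from 111 ± 1.56 and 54.0 ± 1.08 FPKM in control to 16.3 ± 0.126 and 9.71 ± 1.01 in drought and 1.91 ± 1.15 and 0.996 ± 0.134 in heat. BnaA06g33410D thus made up 46.3% of AOC2 in control and 85.1% in drought (84.4 to 86.2% across libraries).

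Whether copies of a locus moved unequally was tested by setting each copy's change against the mean change of the other tested copies (limma's diffSplice, over 39930 copies of all loci). It called 12 of the 37 copies in drought, 15 in heat and 7 in heat against drought, where 7.22%, 17.7% and 19.2% of all copies were called. BnaA06g33410D differed from the other AOC2 copies by 1.99 log2 in drought (SE 0.19, limma adjusted p = 3.05e-11). That difference was 2.70 with a pseudocount of 0.1 and 2.66 with voom. In heat, its difference of -1.52 became 0.15 and 0.68 with those settings and -0.56 with a minimum of 5 FPKM, where it was not called, so no direction is given for it. In heat the other AOC2 copies were listed at 0 to 3.21 FPKM. A copy that started low can there be called higher than the others without rising. BnaC07g22900D was so called at 2.49 log2 in heat, with 0 FPKM in all heat libraries. Such calls are among the counts above. The heat calls of BnaC07g22910D (-2.05) and BnaC09g52570D (-1.39) ended with a pseudocount of 0.1 (-0.78 and -0.41).

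Among the lipoxygenases, LOX6 copy BnaC06g26670D was called in neither treatment, at 5.74, 4.39 and 5.33 FPKM in control, 4.03, 5.18 and 4.63 in drought and 5.45, 5.78 and 5.91 in heat. The 3 groups overlapped, apart from heat lying above drought, and the sign of its small heat change (0.13) turned with TMM and quantile scaling. Against the other LOX6 copies it differed by 1.46 log2 in drought and 1.49 in heat (SE 0.12 in both, limma adjusted p = 1.11e-10 and 2.80e-11). Another LOX6 copy, BnaA02g13230D, went from 12.3 ± 0.702 FPKM to 2.36 ± 0.416 in drought and 1.96 ± 0.345 in heat, and was called lower in each. The most abundant LOX6 copy, BnaA07g24960D, stood at 17.2 ± 1.30, 7.27 ± 0.596 and 13.3 ± 1.20 FPKM, called lower in drought (-1.14 log2) but not in heat (-0.36).

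In LOX3, the copies kept a common direction with unequal sizes. BnaC08g37760D stood at 96.2, 103 and 102 FPKM in control, 2.41, 2.91 and 2.495 in drought and 1.57, 1.99 and 1.73 in heat. BnaC08g48320D had 87.1 ± 1.16, 3.21 ± 0.918 and 6.90 ± 0.475 FPKM, and BnaA08g23120D 48.9 ± 1.79, 2.35 ± 0.514 and 3.64 ± 0.0956. In heat BnaC08g37760D changed by -1.86 log2 relative to the other LOX3 copies (SE 0.14, limma adjusted p = 3.99e-12), so that its share of LOX3 was 39.6% in control and 13.2% in heat. In LOX4, the main copy BnaA02g16020D went from 47.9 ± 0.650 FPKM to 3.06 ± 0.331 in drought and 3.80 ± 0.154 in heat. The minor copy BnaC02g21440D went from 4.76 ± 0.805 to 0.682 ± 0.234 and 1.98 ± 0.358 FPKM, its heat change of -0.95 log2 being just under the threshold and past it with TMM (-1.08), quantile normalization (-1.12), a pseudocount of 0.1 (-1.23) and voom (-1.27), and without control replicate 3 (-1.04), heat replicate 1 (-1.003) or heat replicate 2 (-1.004). Between the LOX4 copies, the change of BnaC02g21440D was 2.40 log2 less negative in heat (SE 0.17, limma adjusted p = 4.02e-09) and 1.82 in drought, the latter 1.25 with a pseudocount of 0.1.

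LOX2 was carried by a pair of full-length copies with different heat levels. BnaA07g19600D stood at 737, 722 and 732 FPKM in control, 258, 253 and 226 in drought and 770.1, 783 and 788 in heat. BnaC06g18870D stood at 389, 386 and 385, 192, 183 and 168 and 550.4, 555 and 565 FPKM. Together they formed most of the LOX2 sum, 60.7% and 32.2% of it in control. Both were called lower in drought (-1.57 and -1.09 log2) and neither was called in heat. Their heat changes were 0.10 log2 for BnaA07g19600D, which turned to -0.093 with TMM and -0.12 with quantile scaling, and 0.52 for BnaC06g18870D (SE 0.04, limma adjusted p = 9.43e-07).

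Of the minor LOX2 copies, 4 were called lower in heat, against the sign of the LOX2 sum. That sum itself was not called in heat (0.21 log2, and 0.015 with TMM). BnaA02g11430D stood at 14.1, 12.3 and 12.6 FPKM in control, 0.108, 0.284 and 0.377 in drought and 0.609, 0.837 and 0.445 in heat. BnaC02g15950D, with 7.10 ± 0.417, 0.248 ± 0.0592 and 0.283 ± 0.275 FPKM, showed the same steep pattern, and both were called lower in drought and in heat. The other 2 have consecutive IDs and partial protein models, covering 52.5% and 42.5% of the Arabidopsis protein. BnaA07g24870D stood at 6.35, 7.71 and 6.51 FPKM in control, 12.9, 14.8 and 12.1 in drought and 2.47, 2.95 and 2.73 in heat, and BnaA07g24880D at 12.6 ± 1.09, 16.6 ± 1.27 and 5.53 ± 0.499 FPKM. In drought they were the opposite of LOX2 as a whole, lying above control (0.86 and 0.37 log2, not called). In heat they lay below control (-1.08 and -1.06 log2, called), where the LOX2 sum was not called. The heat call of BnaA07g24880D ended without heat replicate 1, at -0.998.

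AOS and OPR3 each have an A and a C copy. AOS copy BnaA02g23180D had 164, 166 and 162 FPKM in control, 24.2, 24.3 and 24.3 in drought and 61.1, 63.7 and 61.2 in heat, and BnaC02g29610D had 276, 277 and 279, 36.0, 37.5 and 38.3 and 51.4, 53.3 and 59.5 FPKM. The A copy was the lower of them in control and drought and the higher in heat, and their heat changes differed by 0.93 log2 (SE 0.10, limma adjusted p = 6.46e-07), under the fold threshold. The OPR3 copies started level, BnaA03g38210D at 269, 267 and 258 FPKM and BnaC03g45030D at 266, 268 and 271. In heat BnaA03g38210D stood at 13.4, 12.0 and 11.6 FPKM and BnaC03g45030D at 31.4, 35.4 and 30.7, and the heat change of the A copy was -1.31 log2 relative to the C copy (SE 0.11, limma adjusted p = 4.63e-08). In drought they stood at 23.7 ± 1.71 and 40.9 ± 0.278 FPKM, a difference in change of -0.74 log2, under the threshold. AOC3 copies BnaC09g52550D (194, 11.4 and 6.85 FPKM) and BnaA09g19570D (145, 5.94 and 3.30 FPKM) went down alike. The AOC4 copies were BnaC08g15790D (43.1, 34.7 and 45.9 FPKM) and BnaA08g24350D (34.0, 32.6 and 24.2 FPKM).

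Upstream of the lipoxygenases, the enzymes that supply linolenic acid did not move as one. Lipases DAD1, DGL and PLIP1 were below the minimum level, which left 5 of 8 loci tested. In drought 1 of them was called higher (2 with voom) and 3 lower, where 5.08% and 7.31% of all tested loci were. In heat 0 were called higher and 3 lower, where 14.5% and 10.4% of all tested loci were. At an unadjusted p under 0.05 alone, 0 lay above control in heat, and voom called 0 higher there. PLIP2, a chloroplast lipase that in Arabidopsis is linked to jasmonate production, stood at 9.46, 10.4 and 9.94 FPKM in control, 24.8, 26.4 and 24.4 in drought and 4.08, 4.36 and 3.98 in heat. It rose in drought (1.26 log2, SE 0.08, limma adjusted p = 2.76e-08) and fell in heat (-1.09 log2, SE 0.08, limma adjusted p = 6.79e-08). PLIP3, the other lipase tested, was named here after its values were seen. It rose 2.22-fold in drought without overlap, just under the threshold (0.997 log2, SE 0.12, limma adjusted p = 9.91e-06). In heat it lay below control (-0.48 log2, not called). FAD7, a chloroplast desaturase that makes linolenic acid, had 503 ± 8.95 FPKM in control, 195 ± 4.18 in drought and 97.2 ± 2.22 in heat, called lower in both (-1.37 and -2.36 log2). FAD3, the desaturase of the endoplasmic reticulum, was called lower in drought (25.4 ± 1.21 to 7.28 ± 0.346 FPKM, -1.67 log2), and FAD8, a chloroplast isoform, in drought (-1.47 log2) and in heat (-1.71 log2).

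Most loci of the steps after the cyclases other than OPR3 (OPDA transport, side-chain shortening and conjugation) were not called. Of 10 loci tested (the thiolase KAT1 had 0 listed copies), 3 were lower and 0 higher in drought, where 7.31% and 5.08% of all tested loci were. In heat 2 were lower and 0 higher, where 10.4% and 14.5% of all tested loci were. At an unadjusted p under 0.05, 3 lay above control in drought and 5 in heat, and voom called 0 higher. OPCL1, the ligase that activates the OPR3 product for side-chain shortening, stood at 175, 185 and 186 FPKM in control, 11.1, 11.8 and 9.94 in drought and 105, 98.5 and 101 in heat. It fell by 3.94 log2 in drought (SE 0.06, limma adjusted p = 1.97e-14), while its heat change of -0.84 was under the threshold. The other loci called were the thiolase KAT5, with 87.2 ± 1.72 FPKM in control, 42.7 ± 2.71 in drought (-1.01 log2) and 36.4 ± 1.42 in heat (-1.24 log2), and JASSY, an OPDA channel of the chloroplast envelope (-1.54 and -1.20 log2), named here after its values were seen. The drought call of KAT5 ended with TMM scaling (-0.94), without control replicate 3 (-0.999) and without drought replicate 2 (-0.96). The enzymes of side-chain shortening ACX1 (154, 110.2 and 99.1 FPKM), MFP2 (40.3, 60.3 and 70.2) and KAT2 (222, 372 and 278) and the conjugating enzyme JAR1 (56.8, 50.04 and 77.3) were called in neither treatment.

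**Figure D4:**
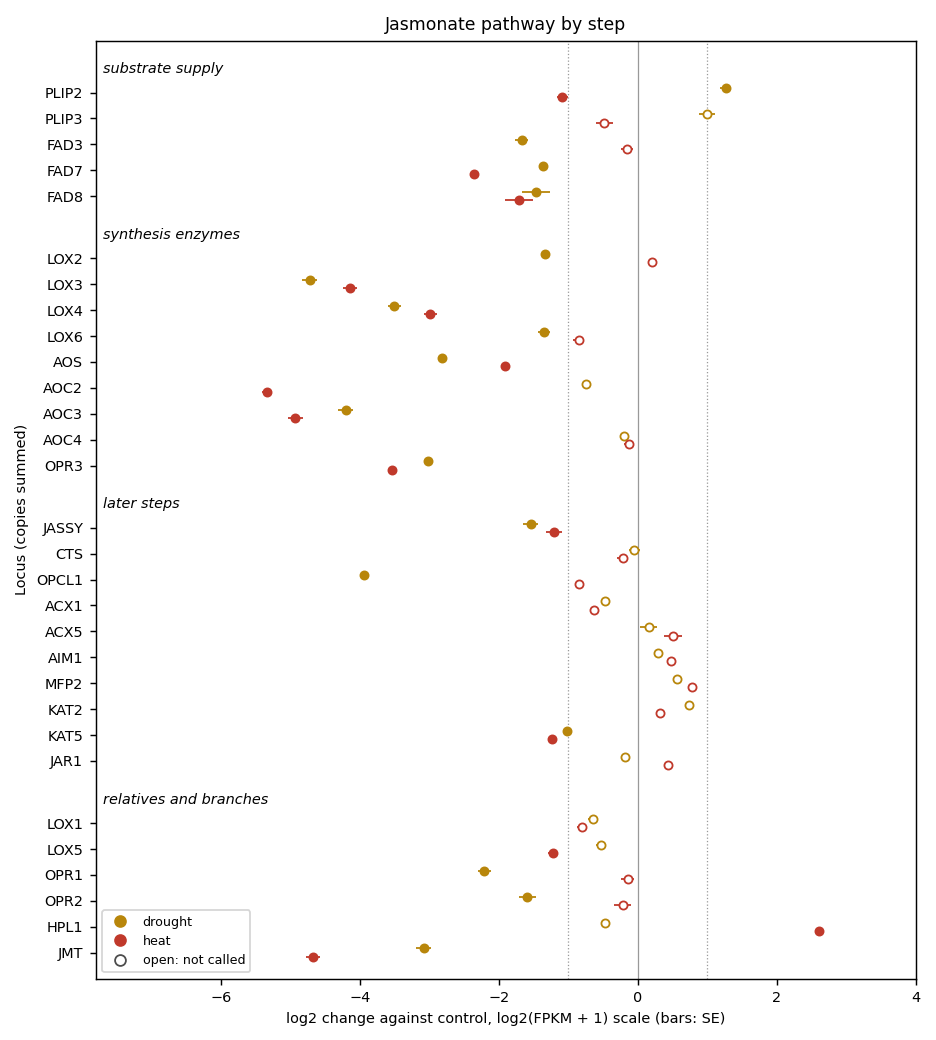
Log2 change against control of loci along the jasmonate pathway (copies summed, log2(FPKM + 1) scale, SE bars) in drought (yellow) and heat (red), grouped by step. Filled points were called, open points were not, and dotted lines mark the 2-fold threshold. Of the 9 synthesis loci, 8 lie left of 0 in heat and 9 in drought, while most later steps lie between the dotted lines and HPL1 lies far right in heat.

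Related enzymes and side branches were mixed. Of 6 loci tested, 3 were lower and 0 higher in drought, where 7.31% and 5.08% of all tested loci were. At an unadjusted p under 0.05 alone, 0 lay above control in drought, and voom called 0 higher. In heat 2 were lower and 1 higher, where 10.4% and 14.5% of all tested loci were. HPL1, the hydroperoxide lyase that draws the same lipoxygenase product toward leaf aldehydes instead of jasmonate, stood at 32.5, 37.3 and 35.6 FPKM in control, 26.1, 24.6 and 24.3 in drought and 218, 218 and 221 in heat. It rose 6.23-fold in heat (log2 change 2.61, SE 0.06, limma adjusted p = 3.52e-13), and its drought change of -0.47 log2 was under the threshold. Heat thus held more HPL1 than AOS (219 against 117 FPKM), and control and drought more AOS than HPL1. JMT, the methyltransferase that makes methyl jasmonate, was at 34.3 ± 1.61 FPKM in control, 3.17 ± 0.172 in drought and 0.381 ± 0.106 in heat, called lower in both (-3.08 and -4.68 log2). OPR1 and OPR2, reductases related to OPR3, were called lower in drought (-2.21 and -1.59 log2) but not in heat (-0.14 and -0.22), and the 9-lipoxygenase LOX5 was called lower in heat (-1.22 log2).

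Genes of jasmonate signalling and response, listed together as readouts, mostly moved in the direction of most synthesis loci. Of 6 readout loci tested, 5 were lower and 0 higher in drought, where 7.31% and 5.08% of all tested loci were. Heat again gave 5 and 0, where 10.4% and 14.5% of all tested loci were. In each, 0 lay above control at an unadjusted p under 0.05, and voom called 0 higher. A further locus of the list had no listed copy. JAZ1, a signalling repressor that jasmonate induces, stood at 341, 360.4 and 352 FPKM in control, 41.6, 38.7 and 39.1 in drought and 25.7, 24.0 and 22.5 in heat (-3.11 and -3.81 log2). JAZ5, another such repressor, went from 387 ± 18.5 to 44.7 ± 5.01 and 49.8 ± 1.98 FPKM, and VSP2, a jasmonate-induced storage protein, from 261 ± 6.01 to 45.1 ± 4.20 and 19.99 ± 2.34. MYC2 itself had 384 ± 4.14 FPKM in control, 89.1 ± 1.11 in drought (-2.09 log2) and 153 ± 3.04 in heat (-1.32 log2). Its order in the treatments depends on the copies summed. Heat against drought it changed by 0.77 log2 (not called), and by -0.60 with full-length copies alone. The locus of this list that was not called was COI1, the receptor, with 24.4, 22.7 and 25.4 FPKM.

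Clock genes stood differently in heat. Of 7 clock loci, 4 were called higher and 2 lower in heat, where 14.5% and 10.4% of all tested loci were. In drought 0 were called in either direction, where 5.08% of all tested loci were called higher and 7.31% lower. At an unadjusted p under 0.05, 4 lay above and 3 below control in drought, and voom called 0. LHY, a factor that peaks near dawn, had 325, 329 and 328 FPKM in control, 280.5, 281 and 249.9 in drought and 5.14, 5.01 and 4.32 in heat, and CCA1, its partner, 75.2, 90.7 and 14.97 FPKM. GRP7, a clock-controlled RNA-binding protein, had 16.6, 17.7 and 20.5, 11.2, 10.7 and 8.32 and 1950.0, 1825 and 2005 FPKM. These values go with every heat result above, and their part in those results was not tested. Of other cell types, summed phloem markers (SUC2, SEOR1, APL, 3 of 3 detected) ranged from 248 to 261 FPKM in control, 225 to 229 in drought and 302 to 303 in heat, with SEOR1 called lower in heat. Summed guard cell markers (FAMA and the KAT1 channel, 2 of 2 detected) ranged from 33.5 to 37.4, 26.1 to 32.5 and 25.98 to 29.96 FPKM. In heat these markers moved in opposite directions, FAMA by -0.53 log2 and the KAT1 channel by 0.33, neither called. The root marker CASP1 was called lower in both treatments, from 2.35 FPKM. Their part in the results was not tested.

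The loci most like AOS over the 9 libraries were found among 10865 loci with a mean of at least 10 FPKM in a group. Likeness was the root mean square distance between their log2(FPKM + 1) values, each less its control mean. CYP79B2, a cytochrome P450 of indole glucosinolate synthesis, was closest at 0.0822, with 149.7, 151 and 152 FPKM in control, 20.1, 21.5 and 18.7 in drought and 35.4, 37.5 and 36.8 in heat. TRP1, an enzyme of tryptophan synthesis (0.106), the phospholipase NPC3 (0.128), AT3G18950 (0.130), the protein kinase CIPK2 (0.131), the wax alcohol enzyme CER4 (0.148), the glucosinolate sulfotransferase SOT16 (0.161) and AT1G80450 (0.213) followed. All other synthesis loci were farther from AOS than these, the nearest being LOX4 at 0.743 (rank 161), then OPR3 at 0.952 (rank 286), and the farthest AOC2 at 2.32 (rank 8279).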

How the data were processed

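Polyadenylated leaf RNA of 9 Brassica napus samples was sequenced. Reads were aligned with HISAT2, per the submitters' processing notes; the sources used here do not name its version, the genome build, the annotation or the counter. The deposited table states no unit; from the values, the authors made FPKM by scaling each gene's reads to its coding length and the library total: multiplied by coding length, at least 99.4% of values above 0 are whole multiples of 1 step per library (tolerance 0.01). Percent identity to the best Arabidopsis protein and its coverage are the authors', as deposited, with the search tool not stated. Column names fit titles of both species apart from a prefix, and were assigned by the table's code and its Brassica napus gene models.

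Values were used as log2(FPKM + 1), for genes reaching 1 FPKM in 3 or more libraries. A model with a mean for each of the 3 groups was fitted to all 9 libraries with limma 3.58.1 (R 4.3.3), with trend and robust moderation and Benjamini-Hochberg adjustment within each comparison over all tested genes, or all loci for sums. Copies of a locus were compared with limma's diffSplice. Both fits were run before use on simulated data, with changes set only in genes that were not low in control. The simulated spread between replicates was fixed and not taken from these data. A pass was required of the gene fit and not of the copy comparison. The labels do not say that replicates are separate plants, so p-values measure the spread between samples, which may be technical. Intervals were not computed; read counts limit low values through counting error only.

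The members, gene lists and tests were chosen with earlier results of these data known. Named were every member locus, its 3 highest copies, copies called against their locus, and of each list the 3 loci with the smallest adjusted p and a mean of at least 1 FPKM. Alternatives were TMM, quantile normalization, no trend or robust moderation, the replicate block, a minimum of 5 FPKM or none, a pseudocount of 0.1, the groups compared alone, voom on recovered reads, no fold threshold and leaving out each library, and, added after seeing the data, sums of copies covering at least 80% of the Arabidopsis protein. Python 3.11.15 with pandas 2.3.3, NumPy 2.4.6, SciPy 1.17.1 and Matplotlib 3.10.9 served for summaries and figures.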

Additional observations from a re-analysis of the deposited data

How the results depend on the processing

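Leaving out each library in turn gave 27 to 28 copies called lower and 0 higher in drought, 23 to 24 and 0 in heat, and 6 lower and 6 to 9 higher in heat against drought. Loci called stayed at 7 lower in drought, 6 lower in heat, and 1 lower and 1 higher in heat against drought. Copy differences called ranged from 11 to 13, 15 to 17 and 7 to 9. Same-numbered replicates did not deviate together (correlations of -0.0184 to 0.0255 over 9 pairs), and the replicate block left the counts at 27, 23, 6 and 7 for copies, 7, 6, 1 and 1 for loci, and 12, 15 and 7 for copy differences. Without a fold threshold, copies called higher were 2 in drought and 1 in heat, loci called higher in heat 1, and copy differences 21 in drought and 35 in heat. In heat against drought the same step gave 13 copies lower and 18 higher, 3 loci lower and 5 higher, and 28 copy differences. There, copies called higher were 11 with a pseudocount of 0.1 and 12 with voom, and copy differences 12 with voom. The threshold itself makes the first changes, and the cause of the others was not tested. With a minimum of 5 FPKM, which tests fewer genes, copy differences were 9 in drought and 10 in heat. Over all genes, the share of calls that were higher was 56.2% in heat and 45.0% with TMM, and 61.3% and 46.5% in heat against drought.

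Signs turned mostly for small changes, none of them called unless stated. In drought these were BnaA06g33410D with quantile normalization (-0.0051) and BnaA08g24350D with TMM (0.027) and on leaving out libraries (-0.128 to 0.012, the latter without control replicate 3). In heat they were BnaA07g19600D with TMM (-0.093) and quantile normalization (-0.12), BnaC06g26670D with the same settings (-0.027 and -0.026) and BnaC08g15790D with TMM (-0.093). In heat against drought they were BnaA02g16020D with quantile normalization (-0.022), AOC4 with TMM (-0.20) and on leaving out libraries (-0.017 to 0.112, the former without drought replicate 1), and BnaC02g15950D with TMM (-0.034), quantile normalization (-0.11), a pseudocount of 0.1 (-0.11), voom (-0.30) and without drought replicate 2 (-0.02) or heat replicate 2 (-0.15). MYC2 had a larger turn there, from 0.77 to -0.60 with full-length copies alone, and neither value reached the fold threshold. The called heat difference of BnaA06g33410D from other AOC2 copies took 0.15 with a pseudocount of 0.1 and 0.68 with voom. For these the cause was not tested. Of the other AOC2 copy differences, those of BnaC07g22910D and BnaC09g52570D were called in drought (-1.39 and -1.003) and not with a pseudocount of 0.1 (-0.75 and -0.41). That of BnaC09g52570D was also not called with TMM (-0.97), quantile normalization (-0.96) or a minimum of 5 FPKM (-0.58), nor without control replicate 3 (-0.95), drought replicate 1 (-0.99) or drought replicate 3 (-0.93). Among LOX2 copy differences, the heat call of BnaC06g18870D (1.21) ended with voom (0.48). In heat against drought, the calls of BnaA07g19600D (1.20) and BnaC06g18870D (1.15) ended with a pseudocount of 0.1 (0.90 and 0.85) and with voom (0.23 and 0.10). Depth limits the lowest copies most, such as LOX2 copies under 1 FPKM in drought and heat.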

Other observations

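Added over subgenomes, AOS of the A subgenome stood at 164 ± 1.95 FPKM in control, 24.3 ± 0.0482 in drought and 62.0 ± 1.49 in heat, and AOS of the C subgenome at 277 ± 1.69, 37.3 ± 1.16 and 54.7 ± 4.22. For LOX3, the A copies summed to 65.5 ± 1.68, 2.88 ± 0.678 and 4.69 ± 0.160 FPKM and the C copies to 187 ± 4.48, 5.82 ± 1.03 and 8.66 ± 0.603. LOX2 of the A subgenome had 776 ± 9.25 FPKM in control and 797 ± 9.74 in heat, and LOX2 of the C subgenome 428 ± 4.37 and 593 ± 9.72. These sums were described and not tested.

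Of the 7 copies below the minimum level, 5 belong to LOX2 and 2 to AOC3. AOC3 copy BnaA06g33400D was listed at 0 in all 9 libraries. DAD1, the lipase that in Arabidopsis supplies anthers, was listed at 0.537 to 0.656 FPKM in control, at 0 in drought and at 0 to 0.0595 FPKM in heat.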
